A study of Mus musculus with 12 samples.

Results

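Interscapular brown adipose tissue (BAT) of Txnip-/- mice was compared between thermoneutrality (TN, 30 °C) and room temperature (RT, 23 °C) by RNA-seq. The comparison took the 6 libraries of this genotype, 3 at each temperature, of 12 libraries in the series. The mice were males of 10 weeks on a C57B/6J background, lacked Txnip in the whole body, and had been acclimated to their temperature for 1 week. All 6 libraries therefore shared the deletion, and wild-type (WT) libraries, also 3 at each temperature, were used to check the deletion, to set levels beside those of Txnip-/- and to ask whether the temperature difference depended on the genotype. Values are TPM, a transcript level scaled for transcript length and library size. Differences are TN minus RT on the log2(TPM + 1) scale, which understates the change of low genes.

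Brown adipocytes burn fatty acids and glucose to release heat. Cold drives sympathetic nerves to release noradrenaline onto the tissue, beta-adrenergic receptors raise cyclic AMP, and lipolysis then feeds mitochondria that are uncoupled by Ucp1. At thermoneutrality the cold stimulus for this drive is absent, whereas 23 °C is a mild cold stimulus. Neither the drive nor cyclic AMP was measured in these libraries. For Txnip-/- mice housed at TN, the paper reports a raised baseline activity of protein kinase A in BAT. Txnip is an alpha-arrestin that binds thioredoxin and restrains glucose uptake.

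The deletion was visible in the targeted gene. Txnip (chromosome 3, 96557957 to 96561857 in mm10) measured 24.8, 26.9 and 35.4 TPM in the 3 Txnip-/- libraries at RT and 11, 14.4 and 10.5 TPM at TN. The WT libraries held 564, 581 and 694 TPM at RT and 1238, 1083 and 1072 TPM at TN. No Txnip-/- library overlapped a WT library. The residual signal lies at a locus where the long noncoding gene Gm15441 runs on the opposite strand, and the strand used in counting is not given in the sources used here.

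The 6 libraries held 29.93 M to 39.27 M reads. On the first principal component, with 77.8% of the variance over genes, the RT libraries lay between -37.6 and -22.43 and the TN libraries between 25.37 and 31.65. Correlations of log2 values across genes were 0.9886 to 0.9935 within a temperature and 0.9525 to 0.9722 between temperatures. The median gene was higher in each TN library (3.646 to 3.667 on the log2 scale) than in any RT library (3.427 to 3.496), so the counts of lists are given as measured and again after every library was centred on its median. The libraries carry the numbers 4 to 6 at RT and 1 to 3 at TN, and no label gives a preparation or sequencing date, so a batch shared by one temperature cannot be told apart from temperature.

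Of 12587 genes with a mean of at least 1 TPM, 5072 (40.3%) differed between TN and RT at an adjusted p under 0.05 and a fold change above 1.25 or below 0.8. Higher at TN were 4013 genes (31.9%), and lower were 1059 (8.41%). The median difference of all tested genes was 0.16. After median centring, 4863 genes were called, 2386 higher (19%) and 2477 lower (19.7%), so the excess of increases was lost with centring. Every count of called genes in a list below is to be read against these shares. They are 31.9% higher and 8.41% lower as measured, and 19% and 19.7% after centring. All 1059 decreases stayed called after centring, 2386 of the 4013 increases did so, and 0 genes changed direction among the calls. All 3 TN libraries lay above all 3 RT libraries for 5623 genes (44.7%) and below them for 2113 genes (16.8%). Large changes were fewer. Among the called genes 682 exceeded a log2 difference of 1 and 123 fell below -1, and 27 exceeded 2 while 16 fell below -2.

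**Figure D1:**
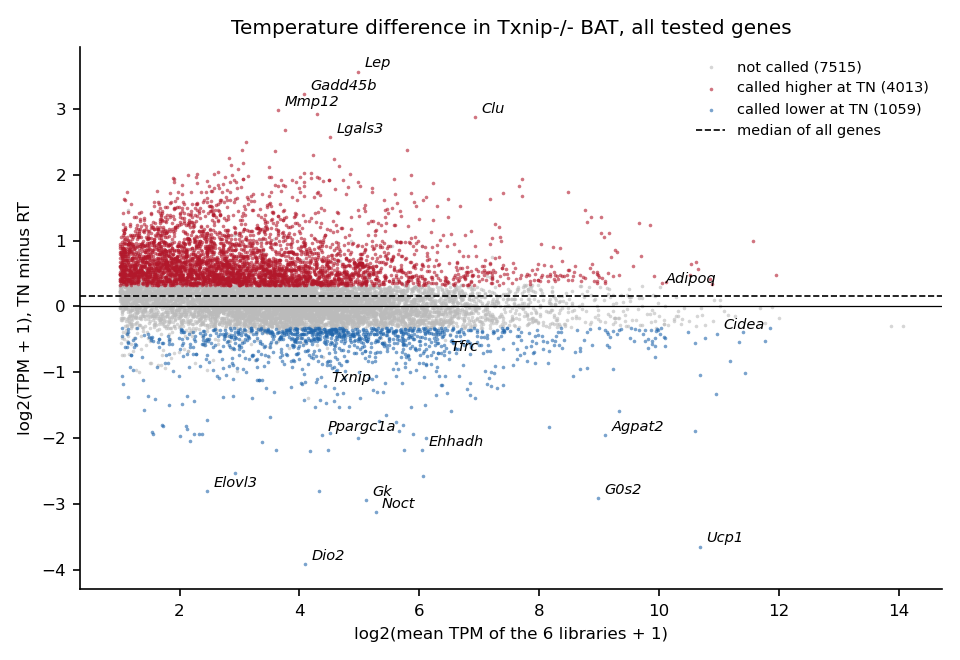
Log2(TPM + 1) difference, TN minus RT in Txnip-/- BAT, of each of the 12587 tested genes against its mean level over the 6 libraries. Red and blue points are genes called higher (4013) and lower (1059), the dashed line is the median of all genes (0.16), and Ucp1 and Dio2 lie at the bottom (-3.64 and -3.91) while Lep lies at the top (3.56).

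Dio2 and Ucp1, which serve heat production, had the lowest differences of all tested genes, and Noct, Gk and G0s2, which are described with other groups, came next. Ucp1, the proton channel that uncouples brown fat mitochondria, measured 2527, 3900 and 2673 TPM at RT and 255, 154 and 339 TPM at TN. The groups were far apart, and the RT mean (3033 ± 754 TPM, SD, n = 3) was 12.2 times the TN mean (249 ± 92.7 TPM). The difference was -3.64 (SE 0.28, adjusted p = 0.000199).

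Dio2, the deiodinase that makes active thyroid hormone inside the brown adipocyte, measured 41.7, 36.6 and 15.4 TPM at RT and 0.71, 0.571 and 1.9 TPM at TN. Its difference of -3.91 (SE 0.38, adjusted p = 0.000335) was the lowest of all tested genes, although the third RT library held less Dio2 than the others. Elovl3, a cold-induced elongase of very long chain fatty acids, measured 5.74, 12.2 and 7.99 TPM at RT and 0.202, 0.469 and 0.33 TPM at TN. The RT mean of Elovl3 was 25.9 times the TN mean, and its difference of -2.80 (adjusted p = 0.000217) became -4.31 with a pseudocount of 0.1.

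The other uncoupling proteins diverged. Ucp3, a relative of Ucp1 found in brown fat and muscle, measured 112, 111 and 82.1 TPM at RT and 43.7, 56.0 and 61.9 TPM at TN, and fell by 0.91 on the log2 scale (adjusted p = 0.00273). Ucp2, which is expressed in many cell types including macrophages, measured 53.7, 50.4 and 62.9 TPM at RT and 91.1, 116 and 92.8 TPM at TN. It rose by 0.83 (adjusted p = 0.00111), and by 0.64 after centring, so the 3 family members were separated by temperature without overlap but not in one direction.

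**Figure D2:**
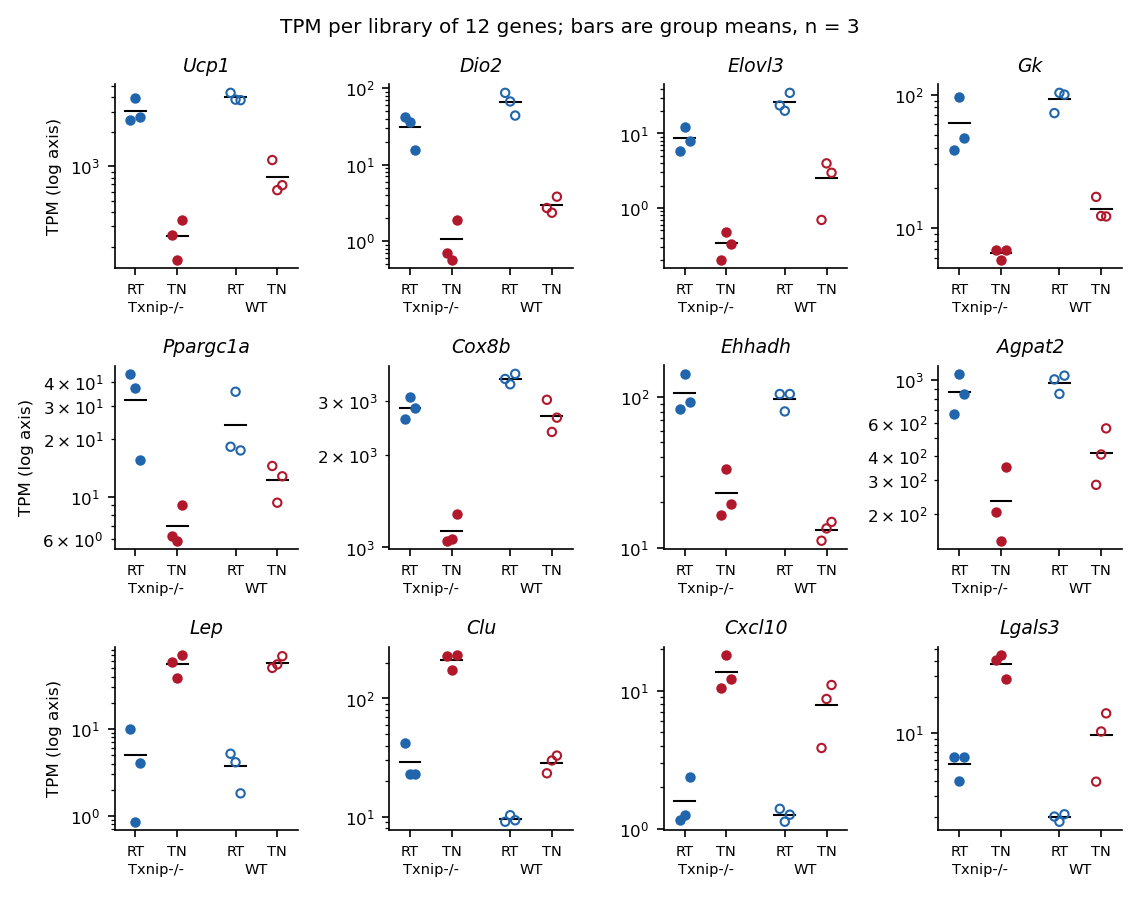
TPM (log axis) of 12 genes in each library, with RT in blue and TN in red, Txnip-/- libraries as filled points, WT libraries as open points and horizontal bars for group means (n = 3). In Txnip-/- the 3 TN points lie below the 3 RT points for the 8 genes from Ucp1 to Agpat2 and above them for Lep, Clu, Cxcl10 and Lgals3.

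The stretch of 250 bases before the start site is shown for the 4 genes that had the largest called differences among a list of brown fat genes, to set 3 genes that fell (Dio2, Ucp1 and Gk) beside a gene that rose (Lep). The sequences are from RefSeq on GRCm38.p6, the build that mm10 names, and each table start is the start of the transcript the TPM refers to. Capitals mark the matches on either strand to the motifs that are spelled out after the sequences.
Dio2 (chr12:90739039-90739288, minus strand): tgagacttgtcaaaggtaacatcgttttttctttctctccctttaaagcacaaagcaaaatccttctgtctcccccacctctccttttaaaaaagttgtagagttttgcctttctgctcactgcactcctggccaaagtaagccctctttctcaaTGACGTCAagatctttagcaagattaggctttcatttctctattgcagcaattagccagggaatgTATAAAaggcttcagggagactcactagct
Ucp1 (chr8:83290098-83290347, plus strand): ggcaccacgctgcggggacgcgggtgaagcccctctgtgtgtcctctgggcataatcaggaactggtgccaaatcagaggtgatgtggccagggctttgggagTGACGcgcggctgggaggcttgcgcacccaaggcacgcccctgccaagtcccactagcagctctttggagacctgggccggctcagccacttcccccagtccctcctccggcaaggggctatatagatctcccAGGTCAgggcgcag
Gk (chrX:85776820-85777069, minus strand): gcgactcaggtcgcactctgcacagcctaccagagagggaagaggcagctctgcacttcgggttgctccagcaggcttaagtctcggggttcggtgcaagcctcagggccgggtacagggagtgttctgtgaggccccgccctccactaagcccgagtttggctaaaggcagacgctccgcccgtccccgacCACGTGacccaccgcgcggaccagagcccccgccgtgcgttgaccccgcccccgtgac
Lep (chr6:29059971-29060220, plus strand): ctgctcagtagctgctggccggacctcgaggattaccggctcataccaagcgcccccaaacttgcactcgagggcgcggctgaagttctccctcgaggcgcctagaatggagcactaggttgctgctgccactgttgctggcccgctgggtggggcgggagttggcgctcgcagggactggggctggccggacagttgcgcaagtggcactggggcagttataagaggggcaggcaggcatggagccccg

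Motifs were searched on both strands. The Dio2 stretch held a full cyclic AMP response element, TGACGTCA, starting 95 bases before the start site, and the core promoter letters TATAAA 30 bases before it. Of 32851 promoters in the table, 1.55% held the full element and 12.4% held TATAAA in the same window. The Ucp1 stretch held TGACG, the core that also lies inside the full element, 147 bases before the start, and 17.8% of promoters held it. It also held AGGTCA, the core bound by nuclear receptors, 14 bases before the start, a motif of 14% of promoters. The Gk stretch held CACGTG, an E-box, 58 bases before the start, a motif of 6.02% of promoters. The Lep stretch held none of these motifs. The ERR element TCAAGGTCA (0.387% of promoters), the sterol element TCACNCCAC (1.05%) and CCAAT (33.8%) were searched for as well and were found in none of the 4 stretches. A match is a description of the letters, and upstream enhancers were not looked at.

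More adrenergic and cyclic AMP genes fell than rose. Of 30 tested genes, 6 rose, a share below the 31.9% of all genes, and 10 fell, above the 8.41%. The median was -0.07 against 0.16 over all genes, and after centring 3 rose and 13 fell. Among the receptors, Adrb3, the main beta-adrenergic receptor of rodent adipocytes, measured 70.4, 99.4 and 89.5 TPM at RT and 54.0, 63.8 and 75.8 TPM at TN. Those groups overlapped and the difference of -0.42 was not called (adjusted p = 0.0537), although it was called lower after centring (-0.61). Adrb1 measured 12.6, 11.9 and 13.6 TPM at RT and 15.8, 19.7 and 24.9 TPM at TN, and rose by 0.61 (adjusted p = 0.0113, and 0.0887 in a single fit of all 12 libraries). The alpha-adrenergic receptor gene Adra1a fell by 1.23 (adjusted p = 0.000408).

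Downstream of the receptors, the phosphodiesterases that break down cyclic AMP split. Pde4d fell by 1.52, from 29.8 to 61.6 TPM at RT to 9.77 to 15.8 TPM at TN (adjusted p = 0.00321). Pde4b rose by 1.11 (adjusted p = 0.0133, and 0.0503 without the first TN library). Nr4a3, an orphan nuclear receptor induced within minutes of cyclic AMP signalling, measured 12.4, 5.78 and 2.11 TPM at RT and 0.637, 1.01 and 0.536 TPM at TN. The RT libraries of Nr4a3 were spread widely but stayed above the TN libraries, and the difference was -1.94 (adjusted p = 0.00974). Of 8 tested thyroid hormone genes, Dio2 fell and the receptor gene Thra rose by 0.39, a call that was lost after centring, and the other 6 were not called. After centring 0 rose and 2 fell.

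Of 30 tested transcriptional regulators of brown fat, 5 rose, a share below the 31.9% of all genes, and 4 fell, against 8.41%. The list median of 0.14 stood close to that of all genes and turned to -0.05 after centring. After centring 2 rose and 5 fell, against 19% and 19.7% of all genes. Ppargc1a, the coactivator that drives mitochondrial biogenesis and Ucp1 transcription, measured 44.2, 37.2 and 15.6 TPM at RT and 6.22, 5.87 and 9.04 TPM at TN, and fell by 1.95 (SE 0.35, adjusted p = 0.00316). The third RT library was low for Ppargc1a, as it was for Dio2, but lay above every TN library.

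Cebpb, a CCAAT-binding factor of early adipogenesis, fell by 1.82, from 350 to 626 TPM at RT to 99.7 to 162 TPM at TN (adjusted p = 0.00108). Prdm16, a determinant of brown fat identity, measured 7.94, 13.1 and 11 TPM at RT and 6.62, 5.72 and 5.39 TPM at TN, and fell by 0.74 (adjusted p = 0.00766, and 0.093 in a single fit of all 12 libraries). The adipogenic factor Ebf1 rose by 0.72. Pparg, the master regulator of adipocytes, was not called (0.12, adjusted p = 0.494, and -0.07 after centring), nor were Ppara (-0.51, adjusted p = 0.249) and Esrrg (0.40, adjusted p = 0.0662).

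Of 15 brown adipocyte markers, 9 fell and 0 rose, against 8.41% and 31.9% of all genes, with a median of -0.42. After centring 11 fell, against 19.7% of all genes. Their levels at TN ranged widely, from Elovl3 and Dio2, at the values given above, to the abundant Cidea and Cox8b. Cidea, a lipid droplet protein abundant in brown fat, measured 2227, 2498 and 2163 TPM at RT and 1677, 1667 and 1831 TPM at TN, a decrease of 0.41 (adjusted p = 0.00388). Cox8b, the brown fat and muscle isoform of a cytochrome c oxidase subunit, measured 2617, 3084 and 2856 TPM at RT and 1052, 1068 and 1282 TPM at TN, and fell by 1.33 (adjusted p = 0.000193). Cox7a1 fell by 0.53 and Fabp3, a fatty acid binding protein of oxidative tissues, fell by 0.59 (adjusted p = 0.00167 and 0.000697). The general adipocyte gene Adipoq was 887 to 980 TPM at RT and 1060 to 1195 TPM at TN, a difference of 0.30 that had an adjusted p of 0.0101 but did not reach the fold threshold. Fewer brown adipocytes and less RNA per brown adipocyte cannot be told apart in bulk tissue.

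Genes of glyceride synthesis fell more often than they rose. Of 18 tested genes of triglyceride synthesis and glycerol handling, 10 fell and 1 rose, with a median of -0.56, and 14 fell and 0 rose after centring. Gk, the glycerol kinase that returns glycerol to triglyceride, measured 38.2, 96.7 and 47.2 TPM at RT and 6.89, 5.78 and 6.82 TPM at TN, and fell by 2.93 (SE 0.30, adjusted p = 0.000374). The second RT library stood above the others, and the groups did not overlap. Pck1, the first enzyme of glyceroneogenesis, measured 2428, 2768 and 2114 TPM at RT and 656, 575 and 744 TPM at TN, a fall of 1.89 (adjusted p = 0.000182). Agpat2, the acyltransferase that makes phosphatidic acid, fell by 1.95, from 668, 1079 and 843 TPM to 204, 145 and 353 TPM (adjusted p = 0.00188).

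Of 18 lipid droplet and lipolysis genes, 11 fell and 2 rose (median -0.45), and the same number fell after centring while 0 rose. G0s2, an inhibitor of adipose triglyceride lipase, measured 836, 946 and 812 TPM at RT and 89.5, 55.2 and 304 TPM at TN. The third TN library held more G0s2 than the others, and the difference was -2.90 (SE 0.53, adjusted p = 0.00333). Abhd5, which activates the same lipase, fell by 1.05, and Plin5, which tethers droplets to mitochondria, fell by 1.16 (adjusted p = 0.000827 and 0.000508). Hilpda, an inhibitor of the lipase induced by hypoxia, and Cav1, the caveolar coat protein, were the 2 that rose (0.68 and 0.39). Neither was called after centring, and Hilpda lost its call when 1 of 4 single libraries was left out.

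De novo lipogenesis had 10 of 24 genes lower, above the 8.41% of all genes, and 5 higher, below the 31.9% (median -0.27). After centring 13 were lower and 4 higher, against 19.7% and 19% of all genes. Fasn, the fatty acid synthase, measured 3792, 3997 and 4515 TPM at RT and 3012, 2435 and 3151 TPM at TN, a decrease of 0.52 (adjusted p = 0.00711), which was not called in a single fit of all 12 libraries. The elongase Elovl6 fell by 0.86 and Pgd, an NADPH source of the pentose phosphate pathway, fell by 0.80. Mid1ip1, an activator of acetyl-CoA carboxylase, rose by 1.53 (adjusted p = 0.000309), and the desaturases Fads1 and Fads2 rose by 1.08 and 0.70. Scd1, the most abundant desaturase at 17619 to 20906 TPM at RT and 11551 to 19738 TPM at TN, overlapped between the groups and was not called (-0.30, adjusted p = 0.211).

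More genes of fatty acid capture and activation fell than rose. Of 19 genes, 4 rose, a share below the 31.9% of all genes, and 6 fell, above the 8.41%. After centring 3 rose and 9 fell, against 19% and 19.7% of all genes. The acyl-CoA synthetases Acsl1 and Acsl5, which activate fatty acids, fell by 1.58 and 1.25, and Acsl1 went from 808, 1138 and 970 TPM to 310, 291 and 368 TPM. Slc27a2, a fatty acid transporter, fell by 1.23. Angptl4, the secreted inhibitor of lipoprotein lipase, measured 224, 192 and 274 TPM at RT and 669, 741 and 498 TPM at TN, and rose by 1.46 (adjusted p = 0.00058). Gpihbp1, the endothelial anchor of that lipase, rose by 0.53.

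Most genes of mitochondrial beta-oxidation fell. Of 23 genes, 15 fell and 2 rose, with a median of -0.39, and after centring 17 fell and 0 rose. Slc25a20, the carnitine carrier, measured 457, 552 and 532 TPM at RT and 243, 240 and 255 TPM at TN, a fall of 1.05 (SE 0.08, adjusted p = 0.000194). Etfdh, which passes electrons from the oxidation to ubiquinone, fell by 0.93, Crat, the carnitine acetyltransferase, by 0.82, and Cpt1b, the muscle and brown fat isoform of the gatekeeping enzyme, by 0.69. Cpt1a, the other isoform, rose by 0.37, a call that was lost after centring.

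Peroxisomal genes followed, with 17 of 38 lower and 2 higher (median -0.17), and 20 lower and 1 higher after centring. Ehhadh, the bifunctional enzyme of peroxisomal oxidation, measured 83.8, 143 and 93.4 TPM at RT and 16.5, 33.2 and 19.6 TPM at TN, and fell by 2.18 (adjusted p = 0.000741). Acaa1b and the transporters Slc25a17 and Abcd3 fell by 2.17, 1.07 and 1.00. Of 10 acyl-CoA thioesterases, which release fatty acids from coenzyme A, 5 fell and 1 rose, and 7 fell and 0 rose after centring. Acot1 fell by 2.52 (6.17 to 20.0 TPM at RT, 1.00 to 1.16 TPM at TN) and Acot11 by 1.58. Acot1 and Acaa1b have near-identical neighbours in the genome, and how the counting shared reads among them is not known.

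Central mitochondrial metabolism was lower by small margins. Of 34 genes of pyruvate entry and the TCA cycle, 16 fell and 3 rose (median -0.26), and 24 fell and 2 rose after centring. The pyruvate carrier subunits Mpc1 and Mpc2 fell by 0.86 and 0.94, from 350 to 383 TPM to 191 to 210 TPM for Mpc1 and from 747 to 855 TPM to 407 to 410 TPM for Mpc2. Pdk4, the kinase that shuts pyruvate dehydrogenase, fell by 0.76, and Pdp2, the phosphatase that opens it, fell by 0.92 (adjusted p = 0.000441 and 0.000885). Idh2 rose by 0.55.

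Respiratory chain lists depended on the scaling. Of 38 complex I genes, 4 fell, a share near the 8.41% of all genes, and 1 rose as measured (median -0.17). After centring 25 fell and 1 rose. As measured, 2 fell without the second RT or the second TN library. All 9 complex III genes lay lower in the TN libraries without overlap, against 16.8% of all tested genes, and 6 were called, against 8.41% (median -0.33, called genes among them Uqcr10 at -0.42 and Uqcrfs1 at -0.41), and all 9 were called after centring and 3 without the second RT library. Of 15 cytochrome c oxidase genes, 3 fell and 1 rose. Of 18 ATP synthase genes 2 fell, a share near the 8.41% of all genes, and 2 rose. Among the latter was Atp5g1 with an increase of 1.57 (3.67 to 5.68 TPM at RT, 13.3 to 21.2 TPM at TN). After centring 8 cytochrome c oxidase genes fell and 1 rose, and 6 ATP synthase genes fell and 1 rose. Of 13 listed genes encoded by mitochondrial DNA, 0 were found in the TPM values, so they were not analysed here.

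The mitochondrial ribosome had 18 of 78 genes lower and 2 higher as measured (median -0.20), and 51 lower and 0 higher after centring. The cytosolic ribosome went the other way, with 66 of 84 genes higher and 2 lower (median 0.43), and 20 higher and 3 lower after centring (median 0.24). Rps3a1 rose by 0.69, from 238 to 274 TPM to 369 to 461 TPM. Cytosolic ribosomal protein genes have many processed copies in the genome, so single values are uncertain. Among 27 genes of mitochondrial dynamics and biogenesis 7 fell and 0 rose, led by Letmd1 (-0.68), a brown fat mitochondrial gene, and 15 fell and 0 rose after centring. Among 38 mitochondrial carriers 9 fell, above the 8.41% of all genes, and 5 rose, below the 31.9%. Those that fell included Slc25a42, a coenzyme A carrier (-1.34). After centring 14 carriers fell and 3 rose, against 19.7% and 19% of all genes.

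**Figure D3:**
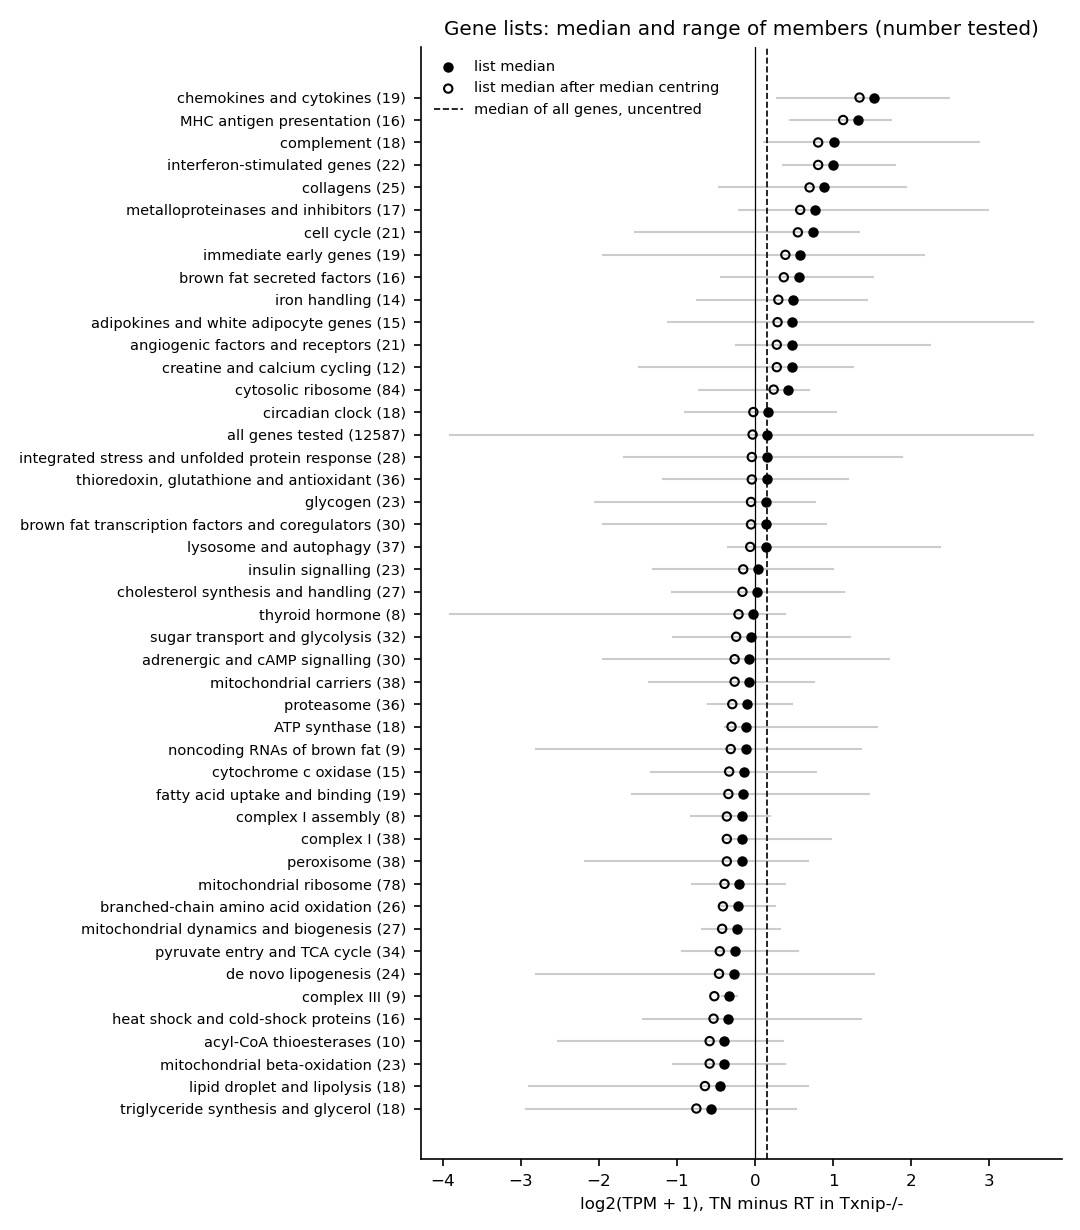
Median log2(TPM + 1) difference, TN minus RT in Txnip-/-, of each pathway list with at least 8 tested genes (marker lists are not drawn), with grey lines from the lowest to the highest member. Filled points are the values as measured and open points those after median centring, and the dashed line is the median of all genes (0.16): of the lists drawn, chemokines (1.53) and MHC genes (1.32) lie at the top, and triglyceride synthesis (-0.56) and lipid droplet genes (-0.45) at the bottom.

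Oxidation of branched-chain amino acids, a fuel that brown fat clears from blood, was lower by margins that mostly did not pass the fold threshold. Of 26 tested genes 7 fell and 0 rose (median -0.22), and 17 fell after centring. The mitochondrial carrier Slc25a44, which imports these amino acids, measured 67.8, 65.7 and 69.9 TPM at RT and 46.7, 48.7 and 57.4 TPM at TN, and fell by 0.41 (adjusted p = 0.0054). Slc3a2, a subunit of plasma membrane amino acid transporters, fell by 0.45, a call lost when any library but the third RT library was left out, and Mcee fell by 0.39. Bcat2, the mitochondrial aminotransferase of the first step, was not called (0.17, adjusted p = 0.244, and -0.02 after centring).

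Of 32 sugar transport and glycolysis genes, 6 rose, a share below the 31.9% of all genes, and 5 fell, above the 8.41%. After centring 1 rose and 13 fell. Hk2, an insulin-regulated hexokinase, measured 140, 136 and 129 TPM at RT and 66.8, 45.4 and 88.6 TPM at TN, and fell by 1.05 (adjusted p = 0.00455). Pfkfb3, which raises the activator of phosphofructokinase, fell by 0.74 and Aldoa by 0.54. The insulin-responsive transporter Slc2a4 overlapped between the groups (250 to 262 TPM at RT, 227 to 295 TPM at TN) and was not called (-0.01, adjusted p = 0.952). Gys2, a glycogen synthase, fell by 2.05, from 8.57, 20.5 and 18.7 TPM to 2.23, 3.07 and 3.37 TPM (adjusted p = 0.00119), while Pygb, a glycogen phosphorylase, rose by 0.61. Of 23 insulin signalling genes, 7 rose, a share near that of all genes, and 3 fell, and after centring 5 rose and 5 fell. Foxo1 fell by 1.30 and the receptor gene Insr by 0.42, and Grb14, an inhibitor of the receptor, rose by 1.00 (adjusted p = 0.000933).

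Genes of creatine and calcium cycling, which can produce heat without Ucp1, did not fall together. Of 12 tested, 7 rose and 2 fell (median 0.47), and 3 rose and 3 fell after centring. Ckb, the creatine kinase of the futile creatine cycle, measured 25.7, 23.0 and 20.0 TPM at RT and 31.5, 31.6 and 32.3 TPM at TN, and rose by 0.46 (adjusted p = 0.00463), a call that was lost after centring (0.27). Gamt and Gatm, which make creatine, rose by 1.25 and 1.11. The calcium pump gene Atp2a2 fell by 0.59 and Atp2a1, the fast muscle pump, by 1.48.

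Skeletal muscle markers were higher in the RT libraries. Of 16 listed markers 8 were below the level filter, and several of the others passed it only through the RT libraries, so no count of calls is given. The summed level of all 16 was 28.6 to 70.4 TPM at RT and 5.83 to 23.2 TPM at TN. Of the 16, 8 lay lower in the TN libraries without overlap, 0 lay higher and 8 overlapped, against 8.97% of all 25124 genes in the table that lay lower without overlap. Ckm, the muscle creatine kinase, measured 5.41, 3.75 and 9.32 TPM at RT and 0.18, 2.33 and 0.16 TPM at TN, so the second TN library stood between the others and the RT group. In WT Ckm had a mean of 0.0773 TPM at RT and 1.07 TPM at TN and was below the level filter. Atp2a1, Fabp3 and Cox8b, which muscle also expresses, measured 2.79 to 7.49, 342 to 402 and 2617 to 3084 TPM at RT. These levels do not show how much of each came from muscle. The part of muscle RNA in the results was not tested.

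More hormone and white fat genes rose than fell at TN. Lep, the satiety hormone made chiefly by white adipocytes, measured 10.1, 0.859 and 4.01 TPM at RT and 59.1, 38.0 and 71.0 TPM at TN. Its RT libraries varied widely yet stayed under every TN library, and its difference of 3.56 (SE 0.57, adjusted p = 0.00199) was the highest of all tested genes. Of 9 tested white adipocyte markers, 5 rose and 1 fell (median 1.48), and after centring the counts were unchanged. The marker that fell was Slc7a10 (-0.62). Of all 14 listed, 5 of them below the level filter, 7 lay higher and 1 lower without overlap (32.8% and 8.97% of all genes in the table). Nnat, a proteolipid, rose by 2.30 (3.59 to 7.25 TPM against 18.1 to 36.8 TPM), Sncg, a synuclein of white adipocytes, by 1.82 and Mest, an imprinted gene of expanding fat, by 1.6. The developmental white fat genes Hoxc9, Hoxc10 and Tcf21 did not pass the level filter, and no library exceeded 0.557 TPM for Hoxc9, 0.412 TPM for Hoxc10 or 0.409 TPM for Tcf21.

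Of 15 adipokines and white adipocyte genes, 8 rose and 3 fell, and 6 rose and 4 fell after centring. Peg3 had the lowest difference of this list (-1.11). Steap4, an endosomal metalloreductase of adipocytes, rose by 1.25, a call lost when the second RT, the third RT or the second TN library was left out, and Rbp4, the retinol carrier, fell by 0.71 (adjusted p = 0.000383). Of 16 factors that brown fat is known to secrete, 9 rose and 1 fell (median 0.56), and 9 rose and 2 fell after centring. Of all 25 listed factors 13 lay higher and 1 lower without overlap, against the same shares of all genes. Fst, the activin antagonist, rose by 1.51, and Nrg4, which acts on liver and nerve, measured 91.4, 103 and 92.3 TPM at RT and 70.8, 58.5 and 83.5 TPM at TN and fell by 0.44 (adjusted p = 0.0201), a call lost without the second RT library or without the first or second TN library.

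Immune genes rose together at TN. All 16 tested genes of MHC antigen presentation rose (median 1.32), as did all 22 interferon-stimulated genes (median 1.00), 18 of 19 chemokines and cytokines (median 1.53) and 17 of 18 complement genes (median 1.01), and none of these lists held a decrease. After centring the increases were 15, 19, 16 and 14. Of all 31 listed chemokines and cytokines, 12 of them below the level filter, 27 lay higher in the TN libraries without overlap, as did all 25 listed interferon-stimulated genes, 3 of them below it, against 32.8% of all 25124 genes in the table. Cd74, the invariant chain of MHC class II, measured 185, 130 and 175 TPM at RT and 564, 649 and 439 TPM at TN, and rose by 1.74 (adjusted p = 0.000347). H2-Ab1 and H2-Aa, which encode MHC class II chains, rose by 1.72 and 1.68, though MHC genes resemble each other closely and their reads may be shared.

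Cxcl10, a chemokine induced by interferon, measured 1.15, 1.25 and 2.35 TPM at RT and 10.4, 18.2 and 12.2 TPM at TN, and rose by 2.49 (adjusted p = 0.000294). Ccr2, the receptor that draws monocytes into tissue, rose by 2.12 and Ccl5, a chemokine of T cells, by 1.96. Among the interferon-stimulated genes Iigp1 rose by 1.79, Ifit3 by 1.74 and Gbp2 by 1.45. In the complement list Clu, a secreted chaperone that inhibits complement lysis, measured 41.8, 23.2 and 22.8 TPM at RT and 230, 175 and 234 TPM at TN. It rose by 2.87 (SE 0.23, adjusted p = 0.000209), and C4b and C1qb rose by 1.73 and 1.71.

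Markers of immune cells moved with these lists. Of 13 macrophage markers 11 rose and 0 fell (median 1.39), with the same counts after centring, and their summed level was 143 to 226 TPM at RT and 510 to 721 TPM at TN. Cd68 measured 5.98, 4.3 and 5.1 TPM at RT and 20.8, 26.8 and 19.1 TPM at TN, and Lyz2 rose by 1.82. Of 10 tested markers of lipid-associated macrophages 7 rose, with Mmp12 at 2.98, Lgals3 at 2.57 and Gpnmb at 2.25, and the other 3 (Lipa, Cd36 and Fabp5, at -0.05, -0.12 and -0.15) were not called. After centring 7 rose and 1 fell. The summed level of the 10 overlapped between the groups (984 to 1107 TPM at RT, 1051 to 1107 TPM at TN), most of it from Cd36, a fatty acid transporter that adipocytes also express, at 843 to 968 TPM.

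Markers of lymphocytes and neutrophils were low, and several passed the level filter only through the TN libraries, so all listed genes in the table are given and no count of calls. All 10 T and NK cell markers lay higher in the TN libraries without overlap, a pattern of 32.8% of all genes in the table (summed level 5.93 to 8.25 TPM at RT, 21.5 to 27.5 TPM at TN), as did all 7 B and plasma cell markers (3.13 to 4.37 TPM, then 18 to 26.2 TPM). Of 7 neutrophil markers 5 did so (1.75 to 3.36 TPM, then 7.06 to 16.9 TPM), while Ly6g and Mpo overlapped and did not exceed 0.16 and 0.178 TPM. Ms4a1 and Pax5, markers of B cells, stayed below the level filter, with at most 1 TPM for Ms4a1 and 0.603 TPM for Pax5 in any library. Of 6 markers of lymph node stroma and epithelium, Ccl21a, Ccl19 and Epcam lay higher in the TN libraries without overlap (summed level of the 6 1.73 to 4 TPM at RT, 4.9 to 6.96 TPM at TN), and Cxcl13, Krt8 and Krt18 overlapped. Ccl21a, a chemokine of lymph node stroma and lymphatic vessels, measured 0.505, 1.71 and 2.28 TPM at RT and 3.08 TPM or more in each TN library (0.93, adjusted p = 0.0215, not called after centring). The part of added immune cells or of lymph node tissue in the rise of the immune lists was not tested.

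**Figure D4:**
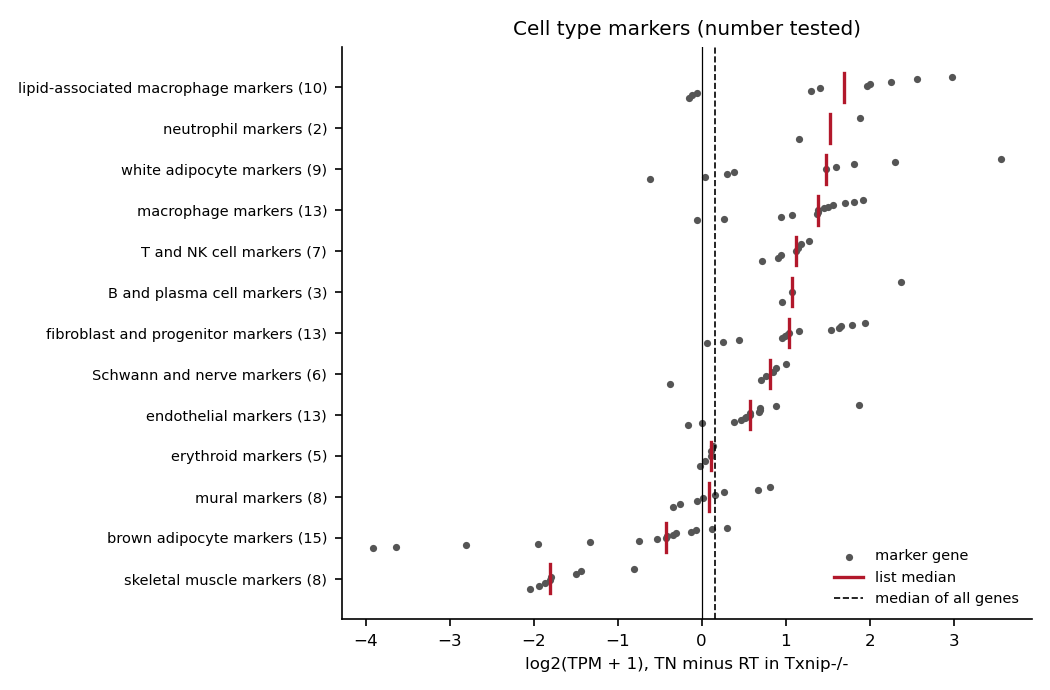
Log2(TPM + 1) difference, TN minus RT in Txnip-/-, of each tested marker gene by cell type, with red bars for the list medians and a dashed line for the median of all genes (0.16). Macrophage (1.39), fibroblast (1.04) and endothelial (0.58) markers lie to the right and brown adipocyte markers (-0.42) to the left, while T and NK, B, neutrophil and skeletal muscle lists are drawn only for the members above the level filter.

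Stromal and vascular genes rose too. Of 25 tested collagens 19 rose and 2 fell (median 0.89), 28 of all 44 listed lay higher and 2 lower without overlap (32.8% and 8.97% of all genes in the table), and the summed level of all went from 478 to 606 TPM at RT to 1223 to 1302 TPM at TN. After centring 17 collagens rose and 3 fell. Col3a1, a fibrillar collagen, measured 104, 75.7 and 80.3 TPM at RT and 331, 333 and 334 TPM at TN, and rose by 1.94 (SE 0.11, adjusted p = 0.000177). Col1a1 and Col1a2 rose by 1.66 and 1.63. Of 17 metalloproteinases and inhibitors 10 rose and 0 fell, led by Mmp12, the elastase of macrophages, which measured 2.42, 0.983 and 1.95 TPM at RT and 24, 25.8 and 13.8 TPM at TN. Mmp11 and Mmp14 rose by 2.04 and 1.83, and after centring 9 of the list rose and 0 fell.

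Fibroblast and progenitor markers moved with them, 11 of 13 higher and 0 lower (median 1.04, summed level 453 to 501 TPM at RT and 1137 to 1181 TPM at TN), and 10 higher and 0 lower after centring. Cd34, found on progenitors and endothelium, rose by 1.79 with little spread (15.1 to 16.1 TPM against 54.2 to 58.3 TPM). Of 21 angiogenic factors and receptors 12 rose and 0 fell (median 0.47), and 9 rose and 2 fell after centring. Aplnr, the apelin receptor, rose by 2.24, Dll4 by 1.31 and Angpt1 by 1.21, while Vegfa, which adrenergic drive induces in brown fat, overlapped between the groups and was not called (0.25, adjusted p = 0.109). Endothelial markers rose in 11 of 13 cases (median 0.58), and 9 rose and 1 fell after centring. Cldn5, a tight junction protein of endothelium, measured 58.0, 17.8 and 23.0 TPM at RT and 151, 131 and 64.6 TPM at TN, with a wide spread in both groups (1.87, adjusted p = 0.0109). Mural markers had 2 higher and 1 lower of 8 (2 and 2 after centring), and erythroid markers had 0 called of 5, of which 3 were called lower without the second TN library.

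Of 37 lysosome and autophagy genes, 13 rose, a share near the 31.9% of all genes, and 1 fell, though the median of 0.14 turned to -0.06 after centring, when 8 rose and 6 fell. The genes that rose most were cathepsins, Ctss by 2.37, Ctsk by 1.41 and Ctsh by 1.41. Of 14 iron handling genes 8 rose and 2 fell (6 and 3 after centring), among them the iron exporter Slc40a1, which rose by 1.43, and the haem oxygenase Hmox1, which rose by 1.19. Of 36 thioredoxin, glutathione and antioxidant genes 10 rose, a share below the 31.9% of all genes, and 2 fell, and 8 rose and 5 fell after centring, when 19% of all genes rose. Gpx3, a secreted glutathione peroxidase, measured 2355, 1855 and 1893 TPM at RT and 4511, 4322 and 3339 TPM at TN and rose by 0.99, while Gpx8 fell by 1.18 and Cat by 0.51.

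Members of the alpha-arrestin family moved in opposite directions. Of 5 tested members, Arrdc1, Arrdc4 and Arrdc2 rose by 1.00, 0.98 and 0.70, and Txnip itself fell by 1.21 from its residual level (adjusted p = 0.000812). Arrdc4, the closest relative of Txnip, measured 7.50, 5.51 and 6.27 TPM at RT and 14.2, 14.6 and 12.1 TPM at TN.

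Heat shock genes were lower and cold-shock genes higher among the calls. Of 16 heat shock and cold-shock genes 8 fell and 2 rose (median -0.34), and 11 fell and 1 rose after centring. Hsph1, a chaperone of the Hsp110 family, measured 28.3, 27.9 and 46.3 TPM at RT and 9.27, 14.7 and 11.5 TPM at TN, and fell by 1.44, Bag3 by 0.68 and Hspb8 by 0.56. The 2 that rose encode RNA-binding proteins that cooling induces. Cirbp measured 15.7, 14.2 and 15.8 TPM at RT and 51.8, 38.1 and 33.7 TPM at TN, a rise of 1.36 (adjusted p = 0.00043), and Rbm3 rose by 0.41 but was not called after centring (0.22).

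Of 28 integrated stress and unfolded protein response genes, 10 rose, a share near the 31.9% of all genes, and 6 fell, and 8 rose and 6 fell after centring, when 19.7% of all genes fell. Phgdh, the first enzyme of serine synthesis, rose by 1.88 (1.73 to 2.58 TPM against 10.3 to 11.8 TPM), Xbp1 by 0.98 and Trib3 by 0.95, while Sesn2 fell by 1.68, Dnajb9 by 0.78 and Atf4 by 0.63. Immediate early genes had 11 of 19 higher and 1 lower (8 and 3 after centring), with Egr1 at 2.17 (1.51 to 2.32 TPM against 10.8 to 14.3 TPM), Ier5 at 1.83 and Jun at 1.47, and Nr4a3 was the decrease. Of all 27 listed cell cycle genes, 6 of them below the level filter, 22 lay higher in the TN libraries without overlap and 1 lower, against 32.8% and 8.97% of all genes in the table. Ccnd1, which starts the cycle, rose by 1.33 and Mcm6 by 0.98, and Cdkn1a, an inhibitor of cyclin-dependent kinases, fell by 1.53, from 98.7, 80.1 and 77.4 TPM to 30.5, 27.8 and 27.7 TPM. After centring 2 of 18 clock genes rose and 4 fell. As measured 3 rose, led by Cry2 (1.04), and 3 fell, among them Per1 (-0.75), whose call was lost when the first RT, the third RT, the first TN or the second TN library was left out.

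Several of the largest changes lay outside the pathways above. Among the 12 called genes with the largest decreases, Noct, a circadian phosphatase of nicotinamide cofactors, measured 80.8, 77.3 and 47.0 TPM at RT and 5.55, 5.83 and 9.43 TPM at TN (-3.12, adjusted p = 0.000199). Sdc4, a heparan sulfate proteoglycan, fell by 2.57, from 88.8 to 129 TPM to 14.7 to 21.2 TPM. Clstn3, whose locus also encodes a brown fat isoform, fell by 2.18, Ffar4, a receptor for long chain fatty acids, by 2.19, and St3gal5, the ganglioside GM3 synthase, by 2.18. The noncoding RNA Lncbate10 measured 35.1, 43.6 and 22.8 TPM at RT and 3.96, 1.73 and 7.44 TPM at TN, and fell by 2.80 (adjusted p = 0.00115).

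Among the 12 with the largest increases, the growth arrest genes Gadd45b and Gadd45a rose by 3.22 and 2.92. Gadd45b measured 2.57, 2.09 and 2.04 TPM at RT and 33.1, 34.0 and 21.9 TPM at TN, and Gadd45a measured 3.89, 3.68 and 3.15 TPM and then 34.0, 37.8 and 29.4 TPM. Apcdd1, a membrane inhibitor of Wnt signalling, rose by 2.67, and Anxa8, an annexin, rose by 2.36 from 6.69, 1.74 and 1.36 TPM to 18, 26.8 and 11.8 TPM. For both genes the first RT library was above the other RT libraries and below every TN library.

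Cholesterol genes had 6 of 27 higher, below the 31.9% of all genes, and 4 lower, above the 8.41%. After centring 4 were higher and 7 lower, against 19% and 19.7% of all genes. The synthetic enzyme Hmgcs1 was lower by 1.06. The proteasome had 1 of 36 higher, the interferon-induced cap subunit Psme1 (0.47, not called after centring), and 3 lower, a share near the 8.41% of all genes. After centring 0 were higher and 12 lower, against 19% and 19.7% of all genes. Ketone body use had 0 of 6 higher and 2 lower, and complex I assembly had 0 of 8 higher and 3 lower, led by Ndufaf4 (-0.82), and each had 4 lower after centring. Noncoding RNAs of brown fat had 4 of 9 higher, among them Meg3 (1.36), and 3 lower (3 and 4 after centring). None of 3 paraoxonases was called, and Pth1r, the only parathyroid hormone receptor gene above the level filter, rose by 0.39, which was not called after centring. Schwann and nerve markers had 3 of 6 higher and 0 lower (3 and 1 after centring), and 5 were higher without the third RT library, and the sympathetic marker Th did not exceed 0.03 TPM in any of the 6 libraries.

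Of the 248 genes selected by the rule in the methods, 72 share exon bases with a gene on the opposite strand in GENCODE vM21, among them Dio2, Gk, Elovl3, Agpat2, Cebpb, Cxcl10, Mmp12, Gadd45a and Ucp2. Reads from such pairs cannot be told apart without strand.

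The temperature difference in WT was measured in 6 other libraries. In WT 4443 of 12360 tested genes were called (35.9%). Of 12216 genes tested in both genotypes, 4785 were called in Txnip-/- and 4402 in WT, and 3302 were called in the same direction, which is 69.0% of the Txnip-/- calls and 75% of the WT calls. Only 3 genes were called in opposite directions. Across these genes the differences correlated with a Pearson r of 0.84 and a Spearman rho of 0.833, as a description over genes that are not independent. The SD of the difference across genes was 0.48 in Txnip-/- and 0.43 in WT.

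**Figure D5:**
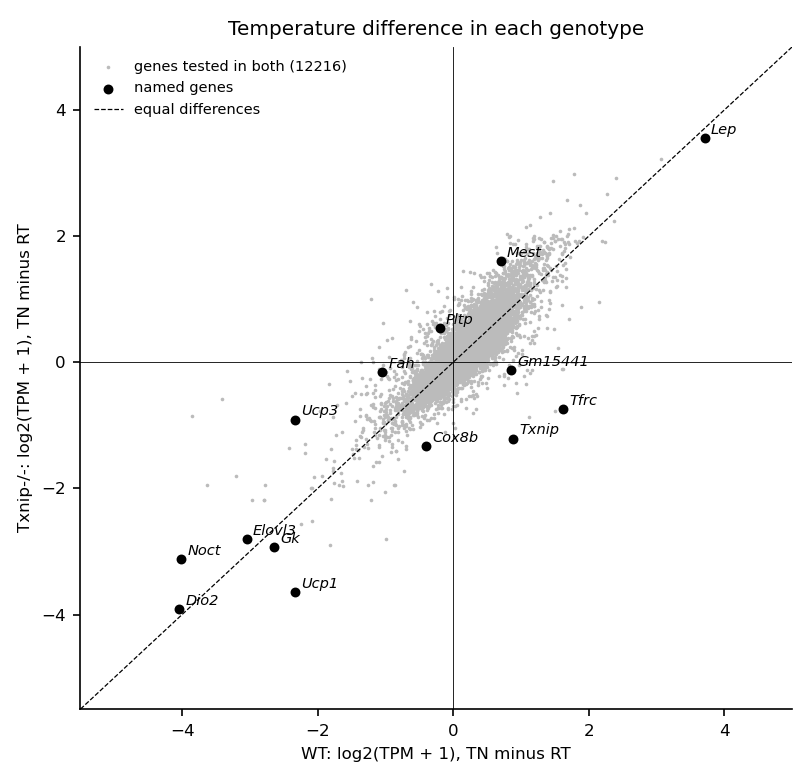
Log2(TPM + 1) difference, TN minus RT, of the 12216 genes tested in both genotypes, with WT on the horizontal and Txnip-/- on the vertical axis, named genes as black points and a dashed line where the differences are equal. Most genes follow the line, while Txnip (0.89 in WT, -1.21 in Txnip-/-) and Tfrc (1.62 and -0.74) lie off it.

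The interaction of genotype and temperature tested the difference between these differences over all 12 libraries. Of 12486 genes, 1 was called (0.00801%), and it was Txnip, the deleted gene, with an interaction of -2.09 (SE 0.20, adjusted p = 0.00344). An unadjusted p under 0.05 was found for 1571 genes. So the fall of Ucp1, -3.64 in Txnip-/- and -2.34 in WT, was not shown to differ between genotypes (interaction -1.31, SE 0.40, adjusted p = 0.242). Ucp1 at TN was 255, 154 and 339 TPM in Txnip-/- and 1136, 621 and 686 TPM in WT. For Dio2 (-3.91 and -4.04) and Lep (3.56 and 3.71) the values in the genotypes lay close together, with interactions of 0.13 and -0.15 (adjusted p = 0.934 and 0.949).

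The next 19 genes shared an adjusted p of 0.0776 and were not called, and those that the rule names are given here. Tfrc, the transferrin receptor that imports iron, measured 94.4, 121 and 99.6 TPM at RT and 46.4, 70.0 and 74.0 TPM at TN in Txnip-/-, and 22.6, 16.9 and 9.42 TPM at RT and 56.3, 38.7 and 54.9 TPM at TN in WT. It was lower at TN in every Txnip-/- library and higher at TN in every WT library (-0.74 and 1.62, interaction -2.36, SE 0.38). Ucp3 went from 109 to 140 TPM at RT to 22.6 to 24.4 TPM at TN in WT, a larger difference (-2.34) than in Txnip-/- (-0.91). Cox8b differed by -1.33 in Txnip-/- and -0.40 in WT, Fah, an enzyme of tyrosine breakdown, by -0.16 and -1.05, and Pltp, a phospholipid transfer protein, by 0.54 and -0.20. Gm15441, on the strand opposite Txnip, differed by -0.12 in Txnip-/- and 0.85 in WT. Mest, Dmpk, Eif5, Gpnmb and Jchain were also named by the rule.

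At the level of lists, 50 pathway and family lists had a median in both genotypes, in WT over those members that passed the level filter there too. The Txnip-/- median was further from 0 than the WT median in 37, among them MHC genes (1.32 and 1.04), chemokines (1.53 and 1.13), complement (1.01 and 0.66), collagens (0.89 and 0.57), triglyceride synthesis (-0.56 and -0.31) and mitochondrial ribosome (-0.20 and -0.06). It was closer to 0 in 10, among them heat shock and cold-shock genes (-0.34 and -0.68), circadian clock genes (0.17 and 0.44), cholesterol genes (0.03 and 0.21), adrenergic and cyclic AMP genes (-0.07 and -0.18), de novo lipogenesis (-0.27 and -0.34) and the 3 uncoupling proteins, with -0.91 and -2.34. The Txnip-/- median of those 3 is the value of Ucp3, while Ucp1 differed by -3.64 in Txnip-/- and -2.34 in WT. These differences between list medians were not tested. With 3 libraries a group, the smallest two-sided exact permutation p for a single gene is 0.1.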

How the data were processed

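Poly(A)-selected RNA was sequenced as single-end 75-base reads. Per the submitters' processing notes and methods, the authors aligned reads to mm10 with STAR 2.7.5a and counted exon reads with HOMER 4.11.1, keeping 1 transcript per gene, and deposited TPM, which keeps no counting error. The authors also deposited normalized log2 values per temperature with their own fold changes and p-values. Those were made separately at each temperature and were not used, except that read totals were taken from the headers. From TPM, log2(TPM + 1) was fitted with limma 3.58.1 (R 4.3.3; moderated test with a trend, Benjamini-Hochberg over all genes) on the 6 Txnip-/- libraries, and on all 12 for the interaction. Genes needed a mean of at least 1 TPM. The fit was tested on simulated data. Labels do not state that each library is a separate mouse, and p-values measure only the spread between libraries. Alternatives were a pseudocount of 0.1, no filter, a filter of 5 TPM, median centring, upper-quartile scaling, no trend, a replicate block, 1 fit of 12 libraries, an adjusted p under 0.01, a fold of 2, and leaving out each library. Members and the 66 lists were chosen with earlier results of these data known. Named were the deleted gene and 28 fixed brown fat genes, the 12 called genes with the largest difference in each direction, up to 3 called genes of each sign per list (no overlap, at least 5 TPM in the higher group, or 10 TPM for the 12), and the 5 genes of each sign with the lowest interaction p. Marker genes below the filter were named after their values were seen. Non-overlap counts and summed levels over all listed genes, without the filter, were also added after the values were seen. Results for some genes are not reported here.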

Additional observations from a re-analysis of the deposited data

Results flagged for a closer look

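Txnip was flagged because its temperature difference differed between the genotypes by the interaction test. The temperature difference in Txnip-/- minus that in WT was -2.09 (SE 0.20, adjusted p = 0.00344 in limma), with Txnip lower at TN in Txnip-/- (-1.21) and higher at TN in WT (0.89). Txnip is the deleted gene, and its level in Txnip-/- at TN was 10.5 to 14.4 TPM. The transcript on the opposite strand, Gm15441, differed by -0.12 in Txnip-/- and by 0.85 in WT (interaction -0.97, adjusted p = 0.0776). Groups of 3 libraries are too small for the check of single outlying libraries.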

How the results depend on the processing

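The number of called genes, 5072, became 3812 at an adjusted p under 0.01 and lay between 4816 and 5619 with another pseudocount, no filter, either scaling, no trend or all 12 libraries, and 4312 to 5382 when 1 library was left out. A filter of 5 TPM left 3235 calls (2295 higher), since fewer genes are tested, and a fold of 2 left 805 (682 higher and 123 lower). Median centring gave 2386 higher and 2477 lower, and the share of calls that were higher went from 79.1% to 49.1%, and to 69.0% with upper-quartile scaling. The cause of the shift was not tested. The interaction count of 1 became 1 to 6 when a library was left out: 6 without RT WT replicate 1, 3 without RT Txnip-/- replicate 1 or without TN Txnip-/- replicate 1, and 2 without TN WT replicate 3 or without TN Txnip-/- replicate 2. Of 248 named genes, 219 kept their direction and their side of the threshold under median centring, 25 lost the call, 2 gained it, and 2 that were not called changed sign: Bcat2 (-0.02) and Pparg (-0.07). Leaving out 1 library moved uncalled genes across 0: Pparg ranged from -0.02 to 0.28, Eif5 from -0.09 to 0.03 and Slc2a4 from -0.11 to 0.08. Fasn, Prdm16, Adrb1 and Hspb8 were among 9 named genes not called in a single fit of all 12 libraries, and 6 to 24 named genes lost the call when 1 library was left out. TPM hold no counting error, so differences of genes near 1 TPM are limited by a depth that the values do not show.

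With a replicate block, 5022 genes were called, 3963 higher and 1059 lower, and the interaction count stayed at 1. Of the named genes 1 lost and 1 gained its call. No pairing by number was seen: the deviations of same-numbered RT and TN libraries correlated at 0.04, -0.027 and -0.052, against -0.053 to 0.072 for other pairs. Correlations from so few libraries cannot exclude a pairing.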
